A study of Mus musculus with 9 samples.

Results

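Bulk RNA sequencing of mouse glioblastoma tissue was compared between the models Synapsin-cre and NG2-creERTM, with 3 libraries each, which are 6 of the 9 libraries of the series. Libraries were assigned by the model named in the labels, and no expression value entered that choice. All 6 came from primary tumour tissue of mice on a mixed background, and the labels give total RNA as the material. The labels name no tumour-driving allele, tumour site, tamoxifen schedule, age or sex, and they do not say that replicates came from separate animals, so that p-values measure how far these libraries differ from each other, part of which may be technical. The models stand for different cells of origin of glioblastoma, per the series description.

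Each model carries the name of a Cre recombinase line, an enzyme that removes or activates floxed alleles in the cells in which its promoter is active. The synapsin promoter is active in neurons, and Synapsin-cre needs no inducer. NG2 is the proteoglycan encoded by Cspg4, whose promoter is active in oligodendrocyte precursor cells, the dividing glia that give rise to myelinating cells, and also in pericytes of brain vessels, so that this line does not single out one cell type. In its ERTM form Cre enters the nucleus only after tamoxifen. A tumour sample holds malignant cells together with neurons, glia, vessels and immune cells of the host, and in bulk RNA fewer cells of a type and less RNA per cell cannot be told apart.

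Libraries held 23557398 to 37617640 counts in genes in Synapsin-cre and 34742585 to 40526995 in NG2-creERTM. Synapsin-cre replicate 1 stood apart from the other 5 libraries, with Spearman correlations across genes of 0.760 to 0.812, against 0.910 to 0.941 for the other 10 pairs. It was the highest or the lowest of the 6 libraries in 60.7% of the genes tested. Synapsin-cre replicate 2 was closer to NG2-creERTM replicate 3 (0.940) than to Synapsin-cre replicate 3 (0.933). The median SD of log2 CPM (counts scaled to a common library size) per gene was 0.70 in Synapsin-cre, 0.42 without that replicate and 0.45 in NG2-creERTM. Results are therefore given with and without it. Y-linked Ddx3y was at 57.2, 65.1 and 57.6 CPM in Synapsin-cre replicates 1 to 3 and at 5.47, 0.0512 and 72.4 CPM in NG2-creERTM replicates 1 to 3. Xist, expressed from the inactive X chromosome, was at 1293 CPM in NG2-creERTM replicate 2 and at 0.975 to 1.28 CPM in the other 5. The part that sex-linked expression has in the values below was not tested.

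The genes that name the lines and common glioma genes were looked at first. Syn1, which encodes synapsin, was at 578, 33.5 and 28.0 CPM in Synapsin-cre replicates 1 to 3 and at 17.1, 11.6 and 33.9 CPM in NG2-creERTM replicates 1 to 3, the order used for all values below. Cspg4 was at 47.2, 234 and 504 CPM against 945, 283 and 247 CPM. Both genes overlapped between the models, so that neither tumour group stood out for the gene behind its own promoter. Nf1, a brake on Ras signalling that is often lost in glioma, was at 110, 180 and 105 CPM against 47.5, 44.8 and 103 CPM, and all 3 Synapsin-cre libraries lay above all 3 NG2-creERTM libraries, though replicate 3 of each differed by little. Trp53, the gene for p53, was at 50.7, 74.6 and 307 CPM against 114, 90.5 and 134 CPM, and did not separate the models. Without named driver alleles these values check no label.

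With edgeR's quasi-likelihood F test, adjusted after Benjamini and Hochberg over 17048 genes, 0 genes (0.0%) passed at 0.05 in either direction, and the smallest adjusted p was 0.595 (n = 3 against 3). At an unadjusted p under 0.05 there were 889 genes higher in Synapsin-cre (5.21%) and 492 lower (2.89%). In DESeq2, which gave no p for some genes, 161 genes passed. Without Synapsin-cre replicate 1, edgeR passed 1 gene of 17661 (0.00566%), which was higher in Synapsin-cre, and 0 lower (0.0%). This was Rps3a3, a processed pseudogene of the ribosomal protein gene Rps3a1, at 0.255, 51.2 and 129 CPM against 0.650, 0.640 and 0.827 CPM, with an adjusted p of 0.0486. Its reads can be shared with near-identical copies, so that its value is uncertain. The genes below are described by their values in each library. Genes in which all 3 Synapsin-cre libraries lay above all 3 NG2-creERTM libraries numbered 1262 (7.4%), and genes in which they lay below numbered 1087 (6.38%). The median log2 fold change over all genes was 0.04, and 52.1% of genes had a positive one, against 48.6% without Synapsin-cre replicate 1.

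The smallest p among genes lower in Synapsin-cre belonged to Esr1, the gene for oestrogen receptor alpha, a hormone-activated transcription factor. Esr1 (chromosome 10, 4611593 to 5005614, GRCm38) was at 1.53, 0.403 and 0.994 CPM in Synapsin-cre and at 66.1, 37.8 and 21.5 CPM in NG2-creERTM. All 3 Synapsin-cre libraries were thus low and all 3 NG2-creERTM libraries high, without overlap. In this comparison only NG2-creERTM carries an ERTM form of Cre. Whether reads of that construct were counted as Esr1 was not tested. The log2 fold change was -5.43 ± 0.74 (SE), with an adjusted p of 0.595 in edgeR, and -5.90 ± 0.77 without Synapsin-cre replicate 1, with an adjusted p of 0.364.

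The other 7 lower genes chosen by smallest p follow. Sema3d, a secreted axon guidance cue of the semaphorin family, was at 30.2, 69.5 and 43.8 CPM against 508, 237 and 326 CPM, a log2 fold change of -2.90 ± 0.48. Bgn, which encodes the small matrix proteoglycan biglycan, was at 76.4, 69.2 and 96.0 CPM against 383, 338 and 203 CPM. Cnmd encodes chondromodulin, a cartilage glycoprotein, and was at 0.851, 2.44 and 2.19 CPM against 301, 22.0 and 44.7 CPM, with NG2-creERTM replicate 1 far above the rest. B3gat2, an enzyme that builds the HNK-1 sugar epitope of glia and neural crest, was at 9.53, 26.2 and 9.04 CPM against 173, 87.2 and 84.7 CPM. In all 4 genes every Synapsin-cre library lay below every NG2-creERTM library.

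Snx22, a sorting nexin of endosomes, was at 14.2, 15.7 and 11.0 CPM against 59.3, 51.9 and 57.2 CPM, a log2 fold change of -2.04 ± 0.33. Pdzrn4, a PDZ and RING finger protein, was at 9.23, 13.5 and 11.8 CPM against 56.9, 52.5 and 37.6 CPM. AI506816, an uncharacterised transcript, was at 20.5, 8.89 and 25.8 CPM against 389, 115 and 141 CPM. These 8 had the smallest p of their direction among non-overlapping genes whose log2 CPM averaged 1 or more, and none passed the adjusted test in edgeR. Their lack of overlap is part of the rule that chose them.

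The genes higher in Synapsin-cre were chosen by the same rule. Nefm, the medium subunit of the neurofilaments of axons, was at 34.2, 76.2 and 21.4 CPM against 2.04, 2.87 and 5.94 CPM, a log2 fold change of 3.60 ± 0.68. Without Synapsin-cre replicate 1, the library with the highest neuronal RNA, it was 3.75 ± 0.69. The part of neuronal RNA in the values of the other libraries was not tested. Cacna1a, the pore of the P/Q-type calcium channel of nerve terminals, was at 213, 118 and 98.3 CPM against 36.5, 26.9 and 41.8 CPM. Carmil3, a regulator of actin capping that is mainly neural, was at 128, 53.3 and 73.1 CPM against 14.7, 20.6 and 16.4 CPM, a log2 fold change of 2.30 ± 0.42.

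Spaca6, known for sperm and egg fusion, was at 94.0, 38.5 and 47.7 CPM against 6.77, 7.45 and 13.2 CPM. Zfp512b, a zinc finger protein, was at 173, 131 and 145 CPM against 37.4, 39.6 and 62.2 CPM. Maneal, an endomannosidase-like enzyme, was at 59.5, 28.5 and 33.2 CPM against 7.89, 10.1 and 10.9 CPM, and Ankrd16 at 72.1, 73.6 and 59.7 CPM against 10.1, 18.4 and 25.4 CPM. Adjusted p was 0.595 for all 15 genes described in these paragraphs in edgeR, while DESeq2 passed all 15, with adjusted p from 8.43e-11 for Esr1 to 0.0097 for Ankrd16. The plot of the 15 genes shows each library.

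**Figure D1:**
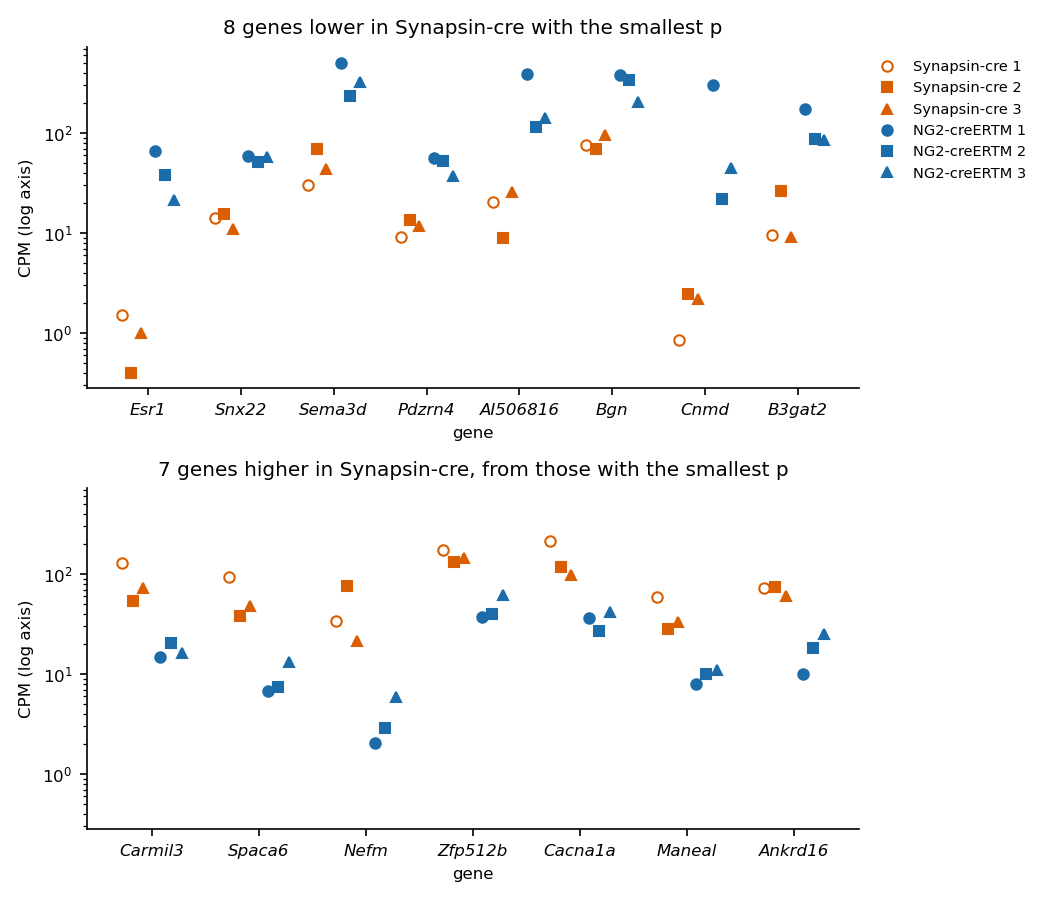
CPM (log axis) of 8 genes lower and 7 genes higher in Synapsin-cre, from those with the smallest p among genes without overlap. Each point is 1 library, orange for Synapsin-cre (open circle, replicate 1) and blue for NG2-creERTM. Esr1 lies between 0.403 and 1.53 CPM in Synapsin-cre and between 21.5 and 66.1 CPM in NG2-creERTM.

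Some measures of reads and transcripts outside protein-coding genes also separated the models. Reads that fell in no gene on the counted strand were 14.9, 13.3 and 9.68% in Synapsin-cre and 4.89, 7.17 and 6.82% in NG2-creERTM, without overlap (exact permutation test, 2-sided, p = 0.1, the smallest that 3 against 3 allows). The part that these reads have in the values below was not tested. Transcripts of the GENCODE class TEC, which await experimental support, numbered 309 among the genes tested, a class chosen after its values were seen. Of these, 94 (30.4%) were higher and 9 (2.91%) lower in Synapsin-cre without overlap, against 6.54% and 6.51% of 14733 protein-coding genes. The median log2 fold change of TEC transcripts was 0.89, and 0.66 without Synapsin-cre replicate 1. They took 0.0964, 0.120 and 0.0568% of the counts in genes against 0.0325, 0.0543 and 0.0480%. The classes lincRNA, with 34 higher and 27 lower of 401, and antisense, with 36 and 20 of 399, were nearer to the protein-coding share. So were processed pseudogenes, with 32 and 30 of 494. The share of counts in lincRNA overlapped between the models, at 1.20, 0.461 and 0.514% against 0.339, 0.572 and 0.376%. The share in protein-coding genes also overlapped.

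Neat1, a long noncoding RNA and the scaffold of nuclear paraspeckles, was at 176, 388 and 573 CPM against 69.3, 75.0 and 152 CPM, and the models did not overlap. Its log2 fold change was 1.94 ± 0.56, and 2.28 ± 0.45 without Synapsin-cre replicate 1. Malat1, which lies near Neat1 on chromosome 19 and was chosen after its values were seen, was at 1898, 738 and 400.5 CPM against 148, 248 and 195 CPM. Meg3, an imprinted noncoding RNA that is abundant in neurons, was at 3670, 116 and 196 CPM against 36.6, 56.7 and 45.9 CPM. Replicate 1 was thus far above the rest for Meg3, and the other 2 Synapsin-cre libraries still lay above NG2-creERTM, with a log2 fold change of 1.75 ± 0.36 without replicate 1. None of the 3 passed the adjusted test in edgeR.

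**Figure D2:**
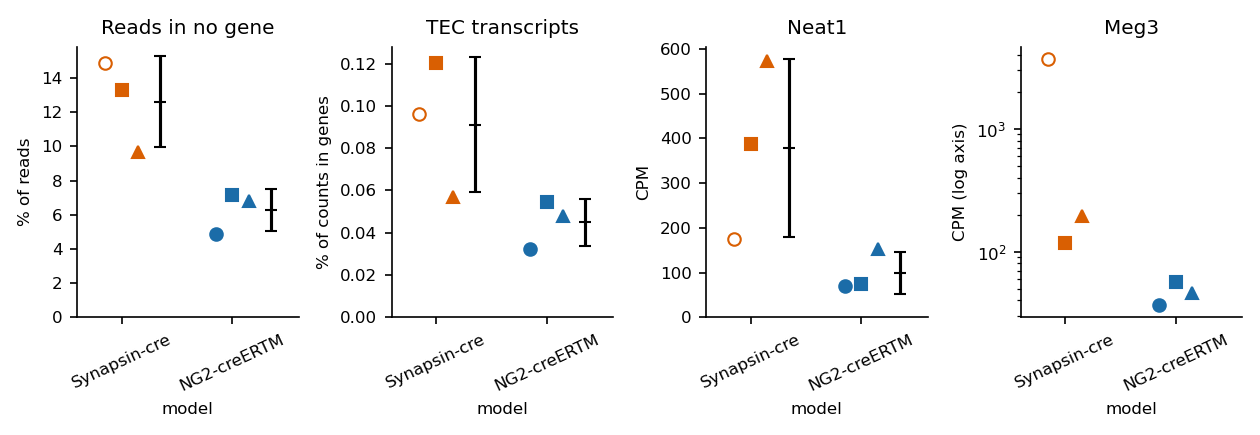
Share of reads in no gene, share of counts in TEC transcripts, and CPM of Neat1 and Meg3 (log axis) in each library, with the mean and SD of 3 libraries beside the points except for Meg3. Open circles mark Synapsin-cre replicate 1. In each panel the 3 Synapsin-cre points lie above the 3 NG2-creERTM points.

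Meg3 and the immediate-early gene Dusp1, described below, share a sequence feature. Both have a full cyclic AMP response element, TGACGTCA, in their RefSeq promoter window (GRCm38.p6, 250 bases before to 50 after the start). The element is the binding site of the CREB family of transcription factors and reads the same on both strands. It is in 588 of 32851 promoter windows in that table (1.79%). A second Meg3 window, farther downstream, holds no copy. The windows of Fos, Jun, Junb, Fosb, Atf3 and Nr4a2 hold no exact copy. The motif was chosen after the values were seen, and a match describes the letters only. The Meg3 window is chr12:109540746-109541045 on the plus strand, where the element begins 57 bases before the start, and the Dusp1 window is chr17:26508423-26508722 on the minus strand, where it begins 143 bases before. Both are shown 5′ to 3′ with the element in capitals.
Meg3: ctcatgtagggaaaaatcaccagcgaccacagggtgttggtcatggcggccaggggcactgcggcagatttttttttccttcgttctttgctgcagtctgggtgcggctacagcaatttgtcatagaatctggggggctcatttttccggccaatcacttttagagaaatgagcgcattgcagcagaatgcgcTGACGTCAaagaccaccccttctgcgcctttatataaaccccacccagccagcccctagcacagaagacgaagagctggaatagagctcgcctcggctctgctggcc
Dusp1: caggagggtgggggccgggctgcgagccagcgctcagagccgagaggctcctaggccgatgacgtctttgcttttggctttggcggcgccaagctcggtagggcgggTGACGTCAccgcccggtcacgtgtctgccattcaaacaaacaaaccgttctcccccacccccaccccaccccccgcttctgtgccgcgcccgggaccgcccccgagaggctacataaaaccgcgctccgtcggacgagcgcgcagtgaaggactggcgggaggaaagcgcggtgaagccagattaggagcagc

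Immediate-early genes, which are switched on within minutes of growth factor, calcium or stress signals, made up a list of 16, of which 14 had a positive log2 fold change, with a median of 0.63 against 0.04 for all genes, and without Synapsin-cre replicate 1 the median was 0.83 against -0.02. Without that replicate 4 of the 16 had an unadjusted p under 0.05 in the higher direction, against 4.04% of all genes. Dusp1, a phosphatase that switches off MAP kinases, was at 18.7, 65.7 and 81.5 CPM against 35, 33.1 and 26.9 CPM. Fos and Jun, which together form the AP-1 transcription factor, were at 54.2, 451 and 426 CPM against 137, 257 and 190 CPM, and at 190, 469 and 499.6 CPM against 239, 226 and 269 CPM. In all 3 genes Synapsin-cre replicates 2 and 3 were the 2 highest libraries, and replicate 1 lay below every NG2-creERTM library. Fosl1, the AP-1 partner that follows sustained ERK signalling, was at 6.04, 4.19 and 6.87 CPM against 1.51, 1.95 and 3.46 CPM without overlap. The 15 ERK feedback genes, such as Spred3 and Etv5, had a median of 0.19, with 8 higher and 7 lower.

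The neuronal lists separated Synapsin-cre replicate 1 from all other libraries rather than one model from the other. The 18 pan-neuronal genes had a mean log2 CPM of 7.83, 5.03 and 4.20 in Synapsin-cre and of 3.56, 3.67 and 4.89 in NG2-creERTM, and their median log2 fold change was 3.16, and 0.11 without replicate 1. Of the 18, 2 were higher without overlap, Nefm and Nefh, the heavy neurofilament subunit, a share near the 7.4% of all genes. For 14 GABAergic genes the median was 3.74, and -0.45 without replicate 1. Gad1, which makes the transmitter GABA, was at 2189, 17.9 and 3.80 CPM against 7.33, 11.2 and 16.6 CPM. For 17 glutamatergic genes it was 2.14, and -1.42 without replicate 1. Slc17a7, a vesicular glutamate transporter of forebrain neurons, was at 383, 0.887 and 0.936 CPM against 7.48, 1.10 and 35.6 CPM. Without replicate 1, 4 of the 14 GABAergic and 4 of the 17 glutamatergic genes had a positive log2 fold change.

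Genes of the olfactory bulb and of forebrain interneurons were high in the same library alone. Their mean log2 CPM was 7.87 in Synapsin-cre replicate 1 and 0.24 to 1.83 in the other 5. Cdhr1, a cadherin of olfactory bulb output neurons, was at 594 CPM there and at 0.913 to 4.16 CPM elsewhere. Patterning genes differed in the same library. Hoxa5, a Hox gene of the hindbrain and spinal cord, was at 0.170 CPM there and at 7.92 to 46.2 CPM in the other 5, and En2, a factor of the midbrain and hindbrain chosen after its values were seen, was at 0.553 CPM there and at 15.8 to 35.3 CPM in the other 5. The labels give no tumour site, and the part of site in these values was not tested.

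Some neuronal genes were higher in all 3 Synapsin-cre libraries. Vgf, the precursor of secreted neuropeptides that is induced by growth factors, was at 108, 217 and 152 CPM against 5.26, 19.9 and 54.4 CPM, a log2 fold change of 2.59 ± 0.80, and 2.80 ± 0.82 without replicate 1. Reln, the secreted guidance protein reelin, was at 381, 635 and 75.0 CPM against 59.6, 73.1 and 36.4 CPM, and the lowest Synapsin-cre library lay just above the highest NG2-creERTM library. Unc13a, which primes synaptic vesicles for release, was at 278, 18.4 and 8.39 CPM against 1.57, 3.41 and 6.44 CPM. Such genes were few in their lists. Higher without overlap were 1 of 14 GABAergic, 2 of 18 synaptic vesicle and 1 of 14 neuropeptide genes, against 7.4% of all genes. Of 17 neuronal ion channel genes 5 did not overlap, all of them higher, against 7.4% of all genes. Beside Cacna1a they included Scn8a, a sodium channel of axons (160, 80.7 and 105 CPM against 6.21, 35.9 and 37.5 CPM), the potassium channel Kcnj3 and the calcium channel Cacna1b. The list's median was 2.71, and 0.49 without replicate 1.

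**Figure D3:**
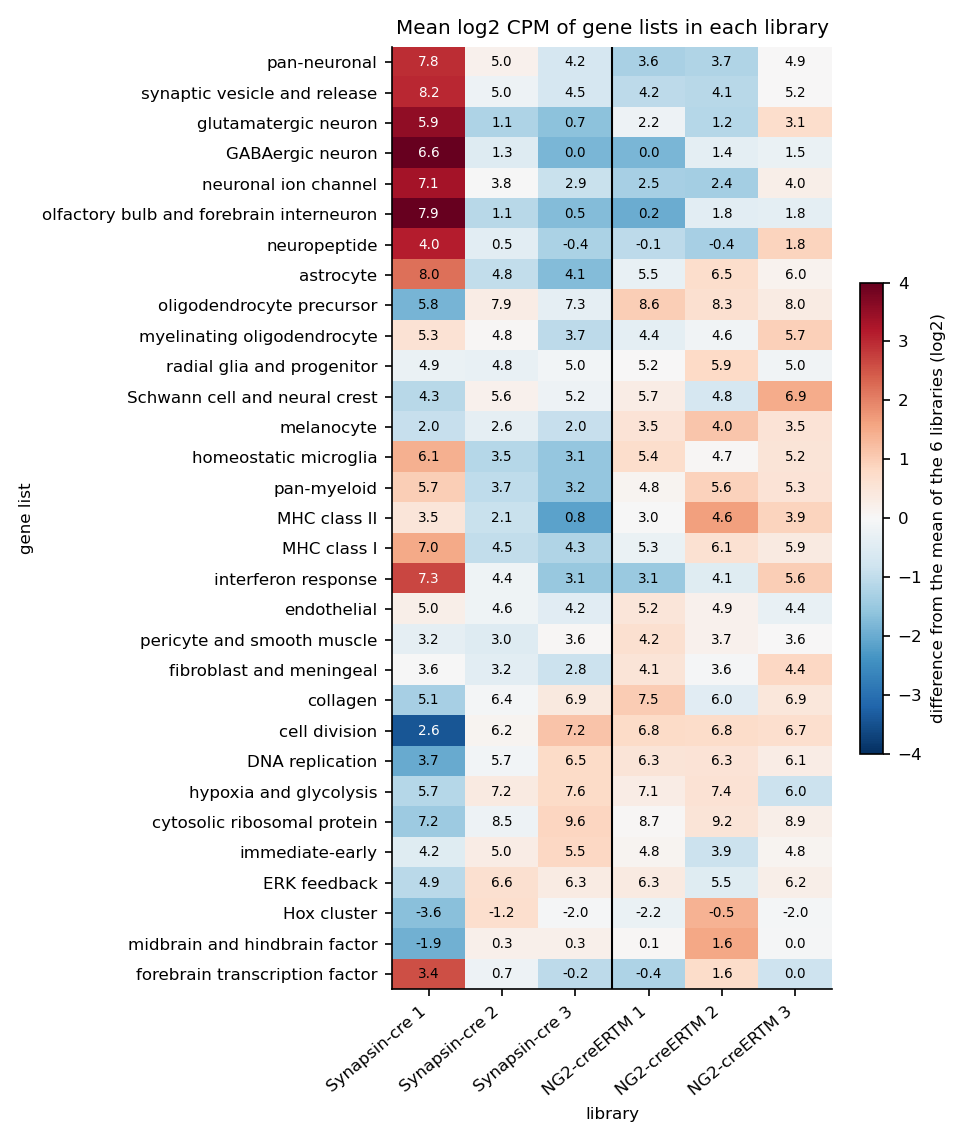
Mean log2 CPM of 31 gene lists (rows) in the 6 libraries (columns). Numbers give the mean, and colour gives its difference from the mean of the 6 libraries. Synapsin-cre replicate 1 is at 7.87 for olfactory bulb genes and at 2.61 for cell division, apart from the other 5 libraries.

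Of 15 oligodendrocyte precursor genes 14 had a negative log2 fold change, with a median of -0.95, and -0.81 without replicate 1. Olig1, a factor of that lineage, was at 146, 711 and 198 CPM against 1583, 807 and 694 CPM, and Gpr17, a receptor of cells about to differentiate, was at 104, 397 and 382 CPM against 768, 853 and 481 CPM. Pdgfra, the growth factor receptor of precursor cells, was at 123, 894 and 261 CPM against 1785, 611 and 646 CPM, and overlapped, as did Olig1. Of the 15 genes, 2 were lower without overlap, among them Gpr17, against 6.38% of all genes. At an unadjusted p under 0.05, 1 of the 15 was lower, against 2.89% of all genes. Sox10, the lineage factor of oligodendroglia and neural crest, chosen after its values were seen, was at 897 and 1060 CPM in Synapsin-cre replicates 2 and 3, close to 940 to 961 CPM in NG2-creERTM, and at 139 CPM in replicate 1. Its relative Sox8 did not overlap, at 45.3, 74.7 and 35.5 CPM against 137, 173 and 134 CPM. The 15 genes of myelinating oligodendrocytes had a median of 0.32, with 8 higher and 7 lower, and of -0.77 without replicate 1. Among them Mobp, a myelin protein gene, was at 314, 1.21 and 1.08 CPM against 23.2, 20.3 and 12.1 CPM, so that its log2 fold change of 2.51 ± 1.87 became -4.01 ± 0.56 without replicate 1.

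Peripheral glia and pigment cells both derive from the neural crest. S100b, a calcium-binding protein of glia, was at 94.8, 159 and 143 CPM against 454, 440 and 370 CPM, a log2 fold change of -1.67 ± 0.36. Dct, an enzyme of melanin synthesis, was at 1.11, 2.9 and 0.614 CPM against 13.5, 12.2 and 91.9 CPM. Both separated the models in every library. All 7 melanocyte genes tested had a negative log2 fold change, with a median of -1.02, and 3 of them, Dct, Kit and Gpnmb, did not overlap, against 6.38% of all genes. Kit is also expressed by other cells, and Gpnmb by macrophages. Of 19 Schwann cell and neural crest genes 15 were negative, with a median of -0.66, and 2 did not overlap. Their mean log2 CPM overlapped between the models, at 4.33, 5.62 and 5.23 against 5.73, 4.77 and 6.91. Without replicate 1 the median was -0.34, with 7 higher and 12 lower.

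Astrocyte genes depended on the library left out. The median of 16 genes was 0.61, and -1.36 without Synapsin-cre replicate 1, with 6 of 16 lower at an unadjusted p under 0.05 in that fit, against 5.76% of all genes. Aqp4, the water channel of astrocyte endfeet, was at 379, 17.7 and 4.24 CPM against 13.4, 64.9 and 125 CPM. Slc4a4, a bicarbonate transporter, was at 427, 1.42 and 8.60 CPM against 34.7, 107 and 24.3 CPM. Gfap, the astrocyte filament, did not follow them, at 3866, 1885 and 91.5 CPM against 308, 1974 and 437 CPM. In the first 2, Synapsin-cre replicate 1 was the highest of the 6 libraries and Synapsin-cre replicates 2 and 3 were among the lowest 3.

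Genes common to myeloid cells, which include microglia and macrophages, and genes of microglia were split in the same way. Synapsin-cre replicates 2 and 3 both lay below all 3 NG2-creERTM libraries in all 16 pan-myeloid genes, against 13.8% of all genes in that comparison, and 15 of the 16 had an unadjusted p under 0.05 in the lower direction, against 5.76% of all genes. The median log2 fold change was -1.84 without Synapsin-cre replicate 1, and -0.67 with it. Among 12 microglia genes 9 were lower at an unadjusted p under 0.05 without that replicate, against the same 5.76%, with a median of -2.07. Tmem119, a surface marker of microglia, was at 78.2, 3.09 and 2.98 CPM against 23, 31.7 and 22.7 CPM, and Cx3cr1, the fractalkine receptor, at 102, 7.20 and 6.23 CPM against 43.1, 35.2 and 46.5 CPM. Replicate 1 was the highest of the 6 libraries in both. Their log2 fold changes were -3.08 ± 0.44 and -2.63 ± 0.37 without it, each with an adjusted p of 0.368 in edgeR, and 0.12 ± 1.19 and -0.11 ± 1.03 with it. Tyrobp, a signalling adaptor of myeloid receptors, was at 38.0, 11.5 and 8.42 CPM against 42.7, 54.2 and 41.9 CPM, with replicate 1 just below the lowest NG2-creERTM library. Genes of monocyte-derived macrophages did not share this split. The median of 15 such genes was -0.01, and -0.32 without replicate 1. In that fit 4 were higher and 11 lower, 3 of them lower at an unadjusted p under 0.05.

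Antigen presentation followed the pan-myeloid genes. All 9 genes of the MHC class II list, which present peptides to helper T cells, had a negative log2 fold change, with a median of -1.17, and -3.09 without Synapsin-cre replicate 1. H2-Ab1, a class II chain, was at 16, 8.38 and 6.17 CPM against 79.7, 88.3 and 32.9 CPM, a log2 fold change of -2.72 ± 0.56, and was the class II gene that did not overlap with all 6 libraries. The 11 MHC class I genes had a median of -0.01, and -1.50 without replicate 1. B2m, the invariant chain of class I, was at 404, 139 and 137 CPM against 244, 379 and 336 CPM. Interferon response genes had a mean log2 CPM of 7.29, 4.45 and 3.10 against 3.15, 4.14 and 5.60, and the median of 18 genes went from 1.39 to -0.85 without replicate 1. Ifit1, an antiviral effector, was at 240, 18.4 and 5.70 CPM against 6.26, 9.55 and 34.7 CPM. Lymphocyte genes were low, with a summed level of 1.5 to 7.74 CPM for 15 T and NK cell genes, and Igkc, an antibody light chain of plasma cells, was at 63.1 and 56.1 CPM in NG2-creERTM replicates 2 and 3 and at 0.723 to 6.04 CPM elsewhere.

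**Figure D4:**
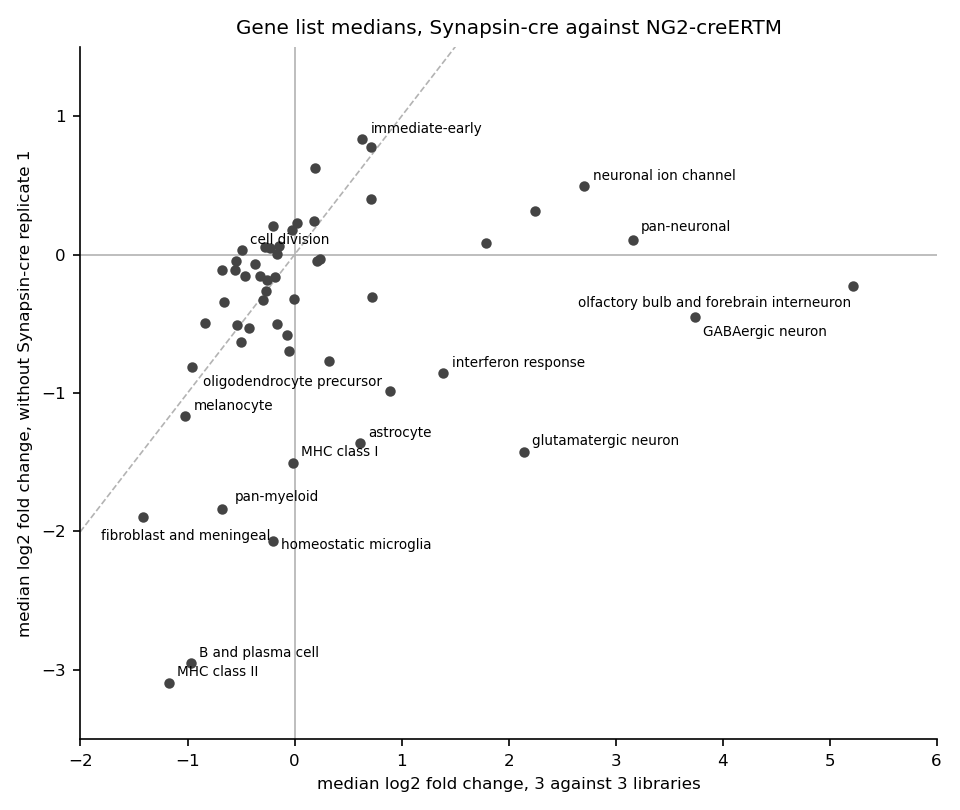
Median log2 fold change (Synapsin-cre over NG2-creERTM) of each gene list with at least 5 genes tested, with all 6 libraries (horizontal) and without Synapsin-cre replicate 1 (vertical). The driver panel and the list of sex-linked genes are not shown. On the dashed line both are equal. Olfactory bulb genes go from 5.22 to -0.23 and MHC class II genes from -1.17 to -3.09.

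The median log2 fold change of 13 fibroblast and meningeal genes was -1.41, with 5 lower at an unadjusted p under 0.05, against 2.89% of all genes. Without replicate 1 it was -1.90, with 2 of 13 lower at that threshold, against 5.76% of all genes. Col1a1, the main fibrillar collagen, was at 18.0, 36.4 and 50.3 CPM against 474, 30.1 and 68.8 CPM, with NG2-creERTM replicate 1 far above the rest. Tie1, a receptor of endothelial cells, was at 16, 14.2 and 15.9 CPM against 36.7, 31.5 and 21.7 CPM without overlap. Rgs5, a marker of pericytes, was at 103, 39.8 and 75.0 CPM against 278, 216 and 74.0 CPM. Pericyte genes had a median of -0.54 and endothelial genes one of -0.16. Lama5, a laminin chain of basement membranes, was higher without overlap, at 47.2, 93.0 and 70.0 CPM against 36.1, 41.3 and 39.1 CPM.

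Cell division marked out Synapsin-cre replicate 1 and not the model. The 20 genes had a mean log2 CPM of 2.61, 6.16 and 7.18 against 6.79, 6.78 and 6.71, and their median log2 fold change was -0.49, and 0.04 without replicate 1. Top2a, an enzyme of chromosome separation chosen after its values were seen, was at 24.1, 551 and 748 CPM against 842, 861 and 520.1 CPM. Cdkn2a, which encodes the tumour suppressors p16 and p19Arf and was also chosen in this way, was at 2.34, 221 and 281 CPM against 258, 92.1 and 213 CPM. Ribosomal protein genes were likewise lowest in replicate 1, with a mean log2 CPM of 7.24 against 8.49 to 9.55 in the other 5. Cdkn2c, an inhibitor of cyclin D kinases, did not overlap, at 7.27, 39.6 and 30.8 CPM against 161, 69.4 and 56.0 CPM.

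The Notch, Wnt, and TGF-beta and BMP lists had median log2 fold changes of -0.18, 0.21 and -0.03, and a few members did not overlap. Of 14 Notch genes 1 was higher without overlap, and of 18 Wnt genes 1 was higher and 1 lower. Of 18 TGF-beta and BMP genes 3 were higher and 1 lower. Over all genes 7.4% were higher and 6.38% lower. Jag2, a Notch ligand, was at 51.6, 26.4 and 24.8 CPM against 7.92, 15.3 and 4.48 CPM. Fzd2, a Wnt receptor, was at 12, 17.7 and 13.5 CPM against 69.5, 41.8 and 23.5 CPM. Ndrg1, a gene induced by low oxygen, was at 51.5, 44.2 and 97.0 CPM against 201, 185 and 134 CPM. The hypoxia list had a median of 0.19. Of its 19 genes 13 had a positive log2 fold change, and 1 was lower without overlap. Without Synapsin-cre replicate 1 the median was 0.63, with 14 higher and 5 lower. Id2, a target of BMP signalling, was at 99.3, 245 and 107 CPM against 73.7, 98.4 and 84.9 CPM. None of these passed the adjusted test in edgeR.

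Single tumours carried long runs of neighbouring genes at high levels. Runs were sought in each library, after such values were seen, as at least 7 protein-coding genes in a row whose running median log2 ratio to the other 5 libraries, over 7 genes, was at least 1.5 in size. In all 12709 genes this gave 10 runs in Synapsin-cre, of which 6 in replicate 1, and 3 in NG2-creERTM. Not all were at high levels. Synapsin-cre replicate 1 had 4 higher and 2 lower runs, which spanned 0.115 to 0.865 Mb. Several of these held families of related neighbouring genes, namely Ifi, Ly6 and Pcdhg genes in higher runs and Hoxa genes, with Hoxa5, in a lower one. Synapsin-cre replicate 2 had 1 higher run, and replicate 3 had 1 higher and 2 lower. The lower runs of replicate 3 also held related genes, those of antigen presentation with H2-Ab1 and the Pcdhb genes. All 3 runs in NG2-creERTM were higher. The longest of all runs was in Synapsin-cre replicate 3 and held 47 genes over 11.4 Mb of distal chromosome 6 (137735078 to 149151171, GRCm38), with a median log2 ratio of 3.5. Of these, 43 were highest of the 6 libraries in that replicate. Bcat1, an enzyme of branched-chain amino acid breakdown in this run, was at 190, 170 and 2577 CPM against 208, 179 and 206 CPM. Slco1a4 and Kcnj8, which are genes of vessel cells, lay in the same run at 1.84 and 10.4 CPM in that replicate and were not raised. The count files hold no measurement of DNA.

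Another run on chromosome 6 was shared across the models. Around Met, the receptor of hepatocyte growth factor, Synapsin-cre replicate 2 and NG2-creERTM replicate 3 were both high, with Met at 38.5, 8800 and 23.8 CPM against 9.13, 26.3 and 5760 CPM. St7, farther along, was at 983 and 1908 CPM in these libraries and at 23 to 30.3 CPM in the other 4. The 2 runs differed at their ends, since Lsm8 was at 1808 CPM in Synapsin-cre replicate 2 and at 62.8 CPM in NG2-creERTM replicate 3, close to the upper end of the 12.1 to 59.2 CPM of the other 4. NG2-creERTM replicate 2 had 22 genes over 4.13 Mb of chromosome 3 at a median log2 ratio of 2.55, among them Pik3ca, the catalytic subunit of PI3 kinase, at 729 CPM against 90.5 to 133 CPM elsewhere. It also had 9 genes on chromosome 15 at a ratio of 2.41, with Myc at 341 CPM against 19.9 to 246 CPM. Sqle, an enzyme of cholesterol synthesis in the chromosome 15 run, was at 39.9, 68.1 and 87.9 CPM against 189, 1197 and 161 CPM. Its log2 fold change of -2.98 ± 0.88 was -1.41 ± 0.45 without NG2-creERTM replicate 2. High levels in these 5 runs were thus each found in 1 library, or around Met in 1 library of each model.

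**Figure D5:**
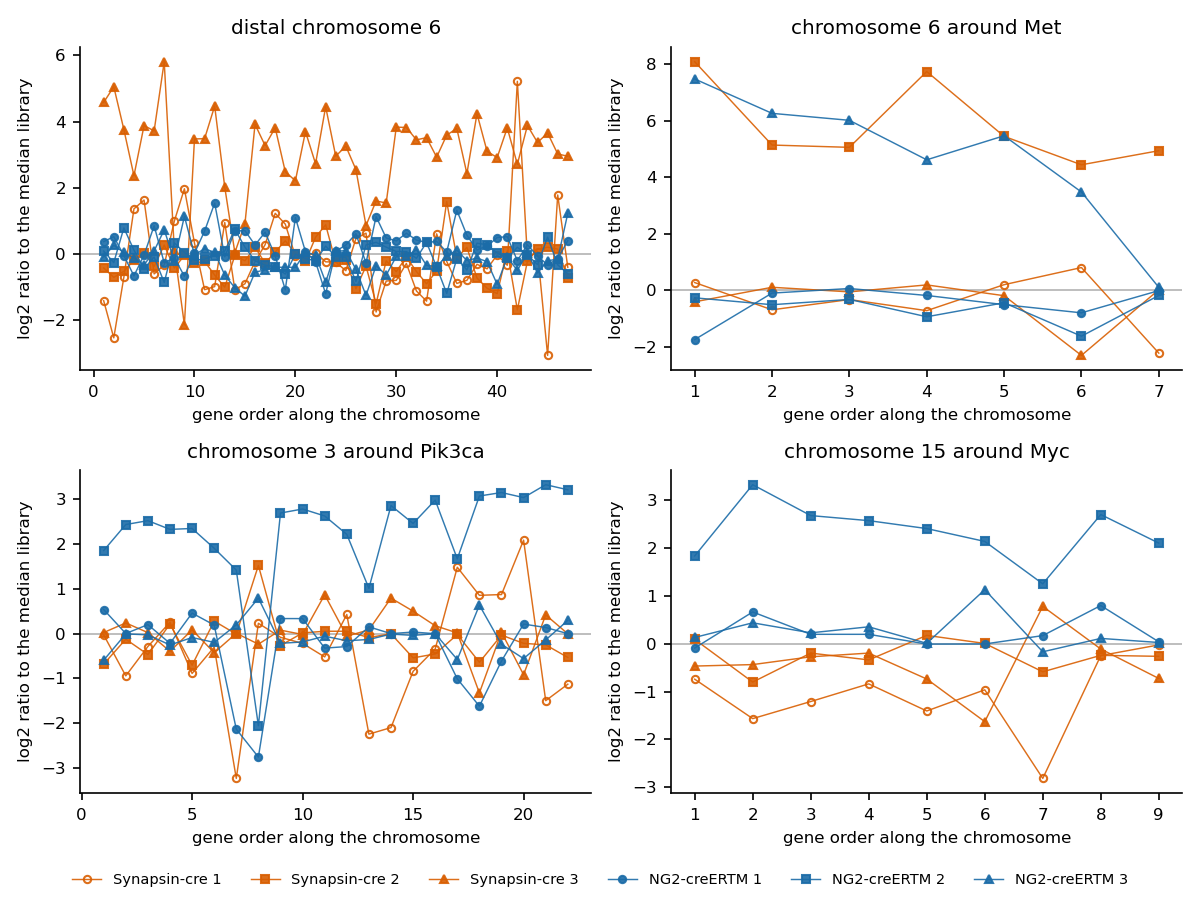
Log2 ratio of each library to the median library (CPM plus 0.5) for the genes of 4 runs, in their order along the chromosome. Synapsin-cre replicate 3 (orange triangles) is highest in 43 of 47 genes on distal chromosome 6. Also high are Synapsin-cre replicate 2 and NG2-creERTM replicate 3 around Met, and NG2-creERTM replicate 2 (blue squares) on chromosomes 3 and 15.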

How the data were processed

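Gene counts were deposited by the authors as whole-number read counts per gene for each library. Alignment with STAR, HTSeq and the genome build mm10 are named per the submitters' processing notes, without versions, and the annotation release is not given in the sources used here. Of 3 deposited count columns, the one for reads on the strand of the second read was used. Gene names came from a GRCm38 annotation, in which 46005 of 46517 identifiers matched. The 6 libraries were fitted alone with edgeR 4.0.16 (R 4.3.3): genes were filtered with filterByExpr, scaled by the trimmed mean of M values, and tested with the quasi-likelihood F test and Benjamini-Hochberg adjustment at 0.05. CPM values use the same scaling, log2 CPM a prior count of 2, and the SE was taken from the fold change and F. The scripts were tested on simulated data. DESeq2 1.42.0 and limma 3.58.1 served as alternatives.

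Per model comparison and direction, the 8 non-overlapping genes with the smallest p whose log2 CPM averaged 1 or more were named, with up to 5 members of each of 58 gene lists by smallest p, in the fits with and without Synapsin-cre replicate 1, and all of a driver panel. Members and lists were chosen with earlier results of these data known. Genes outside the rule, chosen after their values were seen, are Malat1, Top2a, Cdkn2a, En2, Sox10, Junb, Fosb, Atf3, Rps3a1, Rps3a3 and the genes of runs (Bcat1, Slco1a4, Kcnj8, St7, Lsm8, Pik3ca). The precision of each value is limited by 3 libraries a model. Some items that meet the rule are not reported here.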

Additional observations from a re-analysis of the deposited data

How the results depend on the processing

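The number of genes past the adjusted threshold, 0 with edgeR, was 161 with DESeq2 and stayed at 0 with other size factors, other filters, limma voom with quality weights, unstranded counts and all 9 libraries. Leaving out each library in turn gave 0 to 1, with 1 only without Synapsin-cre replicate 1. Of 14 genes whose fold changes are printed, 11 kept their sign in all 14 alternatives, and 7 passed in DESeq2, from an adjusted p of 8.43e-11 for Esr1 to 0.00457 for H2-Ab1. DESeq2 gave no p for Meg3, Mobp, Tmem119 and Cx3cr1, so these were not tested there. The log2 fold changes of Mobp and Tmem119 turned to -3.13 and -2.65 in limma voom. Leaving out single libraries gave -4.01 to 3.08 for Mobp, -3.08 to 0.65 for Tmem119 and -2.63 to 0.39 for Cx3cr1. The lowest value of each gene came from the fit without Synapsin-cre replicate 1. What sets that library apart was not tested. Medians of 8 of 58 lists moved by more than the spread without Synapsin-cre replicate 1, and 4 in limma voom. Counts chosen after seeing the data also moved. Genes higher without overlap went from 1262 to between 1709 and 2560 when 1 library was left out, where overlap is less likely by construction, and genes lower from 1087 to between 1638 and 2756. Genes higher at an unadjusted p under 0.05 went from 889 to 314 without NG2-creERTM replicate 1, 485 without NG2-creERTM replicate 2, 581 without NG2-creERTM replicate 3 and 1577 without Synapsin-cre replicate 3, and were 1586 with no filter and 1581 with all 9 libraries. Genes lower went from 492 to 296 without NG2-creERTM replicate 1, 1017 without Synapsin-cre replicate 1, 994 in limma voom and 789 with no filter. With 3 libraries a model, differences smaller than the spread between Synapsin-cre libraries were not detectable, and some larger ones did not pass either. Snx22 had a log2 fold change of -2.04, with an SD of log2 CPM of 0.26 in Synapsin-cre and 0.099 in NG2-creERTM. Its adjusted p was 0.595 in edgeR. No paired analysis was possible because the library titles carry no replicate numbers shared between the models.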
